A study of Talpa occidentalis with 2 samples.

Results

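COX1, ND1 and CYTB are the names of 3 genes of the mitochondrial genome, and they stand on 225 of the 23336 gene models in the annotation of the Iberian mole genome (Talpa occidentalis, build talOcc3). All gene, transcript and coding records whose symbol, the model name without its copy suffix and without a low-confidence mark, was COX1, ND1 or CYTB were taken. This gave 80 COX1, 74 ND1 and 71 CYTB models. The names were chosen by their number of models, the 3 highest of all symbols once LOC identifiers are left aside, with their share on short scaffolds known, so both values are given as a description only. The series itself profiled contacts of the FGF9 promoter by 4C-seq, a proximity ligation assay read from 1 viewpoint, in wild-type mole embryos of embryonic day 15, with 1 forebrain and 1 hindlimb library and no other treatment or genotype. The annotation has no column for either library. All values below therefore describe 1 assembled genome, without replicates and without a test.

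Mitochondrial DNA of mammals is a small circle that encodes, without introns, subunits of the respiratory chain. COX1 is the catalytic subunit of cytochrome c oxidase (complex IV), ND1 a membrane subunit of NADH dehydrogenase (complex I), and CYTB cytochrome b of complex III. Read along one strand the circle carries ND1, ND2, COX1, COX2, ATP8, ATP6, COX3, ND3, ND4L, ND4, ND5 and CYTB, with ND6 on the opposite strand next to CYTB. Pieces of this DNA are also found inserted in the nuclear chromosomes of many animals, where they are called nuclear mitochondrial segments.

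The models lay almost entirely on very short scaffolds. The last annotated base stood for the length of a scaffold, which understates it. By this measure 79 of 80 COX1, 73 of 74 ND1 and 69 of 71 CYTB models lay on scaffolds under 1 Mb, where 12.5% of all models lay. For the single-exon models from exonerate, the protein aligner that gave all 225, the share was 41.9%. That share includes the mitochondrial models. Of the 1972 such models on short scaffolds, 493 on the plus and 496 on the minus strand could be given no mitochondrial symbol. Neither their name nor the protein they were aligned from was paired with one. Unnamed models of ATP8, ND3, ND4 or ND5 proteins may be among them, since no model carries these symbols. These scaffolds were far below the limit. Their last annotated base had a median of 1051 for COX1, with a range of 735 to 1715. For ND1 the median was 1029 (260 to 2291), and for CYTB it was 992 (236 to 1691). No model lay on a scaffold of intermediate size, since the lowest last annotated base above the limit was 33956546. In all, 220 of the 225 models lay on scaffolds with a number of 10000 or above, and no annotated base of any of the 1055 scaffolds so numbered lay beyond 1854. The exceptions were the 4 models on long scaffolds and ND1_copy51, on scaffold 7673 at 1854 to 2291, which is named after its position was seen.

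**Figure D1:**
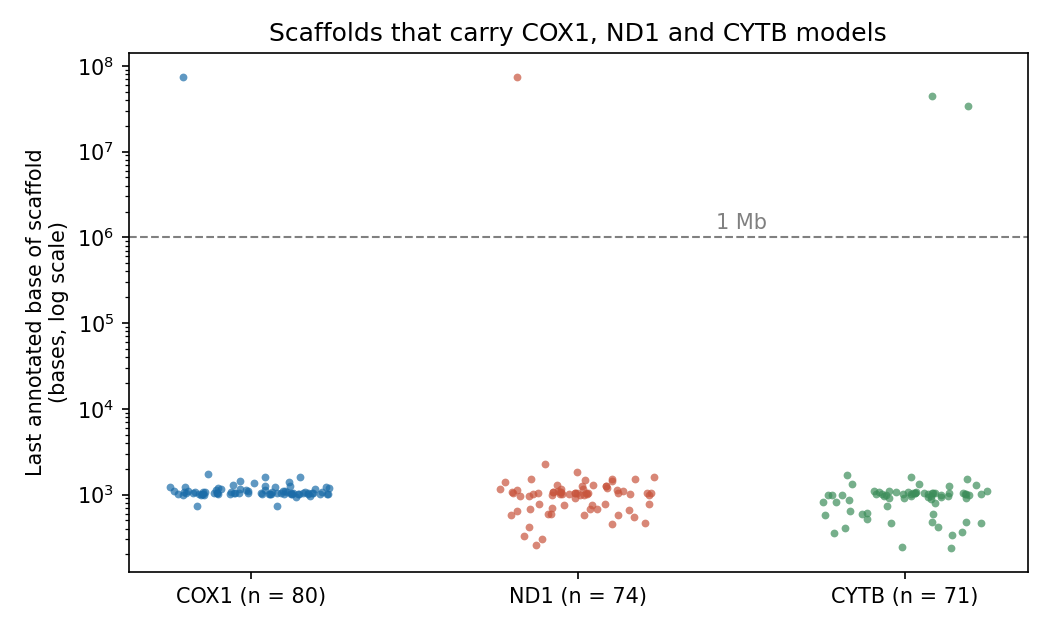
Last annotated base of the scaffold (bases, log scale) for each COX1, ND1 and CYTB model, 1 point a model, with the 1 Mb limit as a dashed line. The 221 points below the line lie between 236 and 2291, and the 4 above it at 33956546 or more.

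Short scaffolds with these names carried 1 or 2 models. On 166 of the 221 (75.1%) the member was the only model, and on the other 55 there was 1 further model. The share with a single model was close to that of all 2017 annotated scaffolds under 1 Mb, 75.4%. It was below the 79.6% of the 1275 scaffolds with a last annotated base under 2000. Both sets include the members' own scaffolds, and 801 of the 2017 and 800 of the 1275 carried a mitochondrial model, with or without a symbol. Whether members are alone more often than other models was therefore not tested. Over all models, long scaffolds included, 6.52% were alone on their scaffold. The member was alone for 59 of 80 COX1, 66 of 74 ND1 and 41 of 71 CYTB models. Of the 55 further models, 17 carried another mitochondrial symbol. A further 35 had no symbol but came from a source protein that the annotation pairs with a mitochondrial symbol elsewhere, and 3 came from a source protein paired with no symbol. None of the 17 further models with a symbol carried the name of a nuclear gene, and the origin of the 3 without a paired symbol is not known. Without their sequence, mitochondrial DNA and nuclear copies of it cannot be told apart there, and the models are called by their symbols here.

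Each short scaffold held 1 member only. The 225 models were spread over 224 scaffolds, and 223 of these carried a single member. ND1 and COX1 shared scaffold 5, and no scaffold carried all 3 names. Within each symbol, no scaffold carried the name more than once, with 80 scaffolds for COX1, 74 for ND1 and 71 for CYTB.

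The position of a model on its scaffold went with the part of the protein it matched. Each transcript records which residues of a target protein it matched. Among the 101 short-scaffold models that began within 10 bases of the first scaffold base, 100 had a match that began after residue 5 of the target. Among the 120 models that began further in, 107 had a match that began at residue 1 to 5 and 13 had one that began later. COX1 divided into 35 of 35 and 38 of 44, ND1 into 31 of 32 and 39 of 41, and CYTB into 34 of 34 and 30 of 35. A match that lacked the start of the protein thus mostly ran into the first bases of the scaffold. A match with the start of the protein mostly began further in. Only this end of the scaffold was examined, since the annotation does not give where a scaffold ends. All members lay on the plus strand, where a match cut off at the first scaffold base lacks the start of the protein. The same shares were not computed for other models, so the pattern is not shown to be particular to the members.

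Most models covered only part of their protein. The last target residue reached by any model was 511 for COX1, 318 for ND1 and 378 for CYTB, and shares of the target are relative to these residues. The median share matched was 41.6% for COX1 (11.9 to 100%), 61.9% for ND1 (21.7 to 99.7%) and 53.7% for CYTB (19.3 to 98.1%). At least 80% was matched by 5 of 80 COX1, 15 of 74 ND1 and 10 of 71 CYTB models. Under 25% was matched by 20 COX1, 9 ND1 and 8 CYTB models.

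The pieces overlapped. Up to 46 COX1 models matched the same residue, first at residue 34, and every residue up to 511 was matched by at least 27. For ND1 the highest coverage was 52 models, first at residue 186. Residue 318 was matched by 1 ND1 model and the residues before it by at least 31. For CYTB the highest coverage was 47, first at residue 74, and the lowest 29. Summed over models, the matched residues amounted to 35.2 target lengths for COX1, 44.0 for ND1 and 38.4 for CYTB. Joining models of separate target parts could therefore not bring the numbers below 46, 52 and 47. Coverage of COX1 was uneven along the protein, with a mean of 41.9 models per residue when the protein was cut into 3 equal stretches and the first was taken, 31.5 in the middle stretch and 32.1 in the last. The corresponding means were 42.4, 49.2 and 40.6 for ND1 and 39.9, 41.1 and 34.3 for CYTB.

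**Figure D2:**
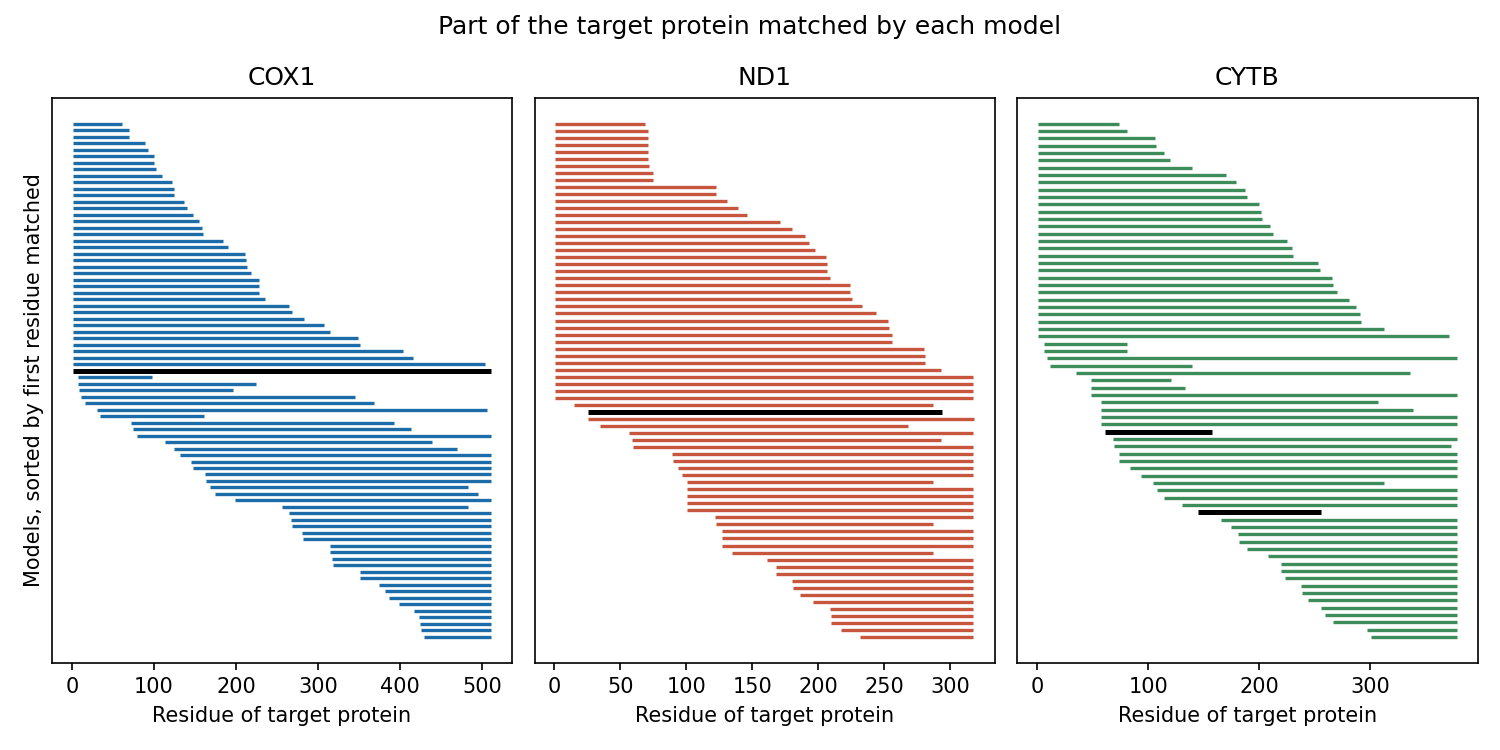
Residues of the target protein matched by each COX1, ND1 and CYTB model, 1 line a model, sorted by the first residue, with models on scaffolds of at least 1 Mb in black. The lines run from 61 residues long to the 511 of COX1_copy2, and 39 COX1, 40 ND1 and 30 CYTB lines begin at residue 1.

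Coding lengths followed the same picture. The COX1 models had a median of 682.5 coding bases (183 to 1538), the ND1 models 673.5 (216 to 955) and the CYTB models 639 (228 to 1113). At least 80% of the longest model was reached by 5 COX1, 23 ND1 and 16 CYTB models. A single coding exon was found in 223 of 225 models, against 79.3% of the 5944 exonerate models and 24.7% of all models. The coding length was not a multiple of 3, and so held no whole number of codons, in 39 of 80 COX1, 30 of 74 ND1 and 27 of 71 CYTB models. The share over the 3 names was 42.7%, set beside 12.2% of all models and 29.6% of single-exon exonerate models. Both of these sets include the mitochondrial models. In the 96 models with such a length, a median of 90% of the coding bases lay in the target match, and in 18 of them under 80% did. In the other 129 models the median was 100%, and 5 were under 80%.

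The deposited score of a transcript rates its match with the target. Its formula is not stated in the labels or the file, and scores are set against each other within a symbol only. The best COX1 model, without a suffix, scored 601 on scaffold 11418 at 197 to 1715, with 1519 coding bases and residues 30 to 506 matched. The lowest, COX1_copy80, scored 103 and matched 61 residues. ND1 had equal best models, ND1 on scaffold 20224 at 94 to 1044 and ND1_copy2 on scaffold 24875 at 7 to 957, each with a score of 358, 951 coding bases and residues 1 to 317. They came from source proteins of different species. The lowest, ND1_copy74, scored 108 with 69 residues matched. The longest ND1 model, ND1_copy15, had 955 coding bases. The best and longest CYTB model, without a suffix, scored 514 on scaffold 12636 at 394 to 1506, with 1113 coding bases and residues 1 to 371. CYTB_copy71, on a long scaffold, had the lowest CYTB score, 103.

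Scores of at least 80% of the best were reached by 11 COX1, 7 ND1 and 11 CYTB models. The median score was 46.5% of the best for COX1, 61.9% for ND1 and 51.8% for CYTB. Copy numbers ran in the order of the scores, and in none of the 3 symbols did a higher number carry a higher score. The lowest scores lay close to 100, the lowest score of any model in the annotation. Across models, score went with matched residues (Pearson r = 0.848 over 80 COX1, 0.898 over 74 ND1 and 0.913 over 71 CYTB models). The models share target and aligner and are not independent. The score per matched residue had a median of 1.48 for COX1 (0.613 to 1.71), 1.13 for ND1 (0.556 to 1.57) and 1.39 for CYTB (0.822 to 1.61). Repeats in target part, coding length and score together were few. They were shared with another model by 4 COX1, 8 ND1 and 2 CYTB models, in groups of 2. Repeats in target part and score alone were more frequent and were not counted. ND1_copy66, ND1_copy67, ND1_copy69, ND1_copy71 and ND1_copy72, named after their values were seen, all matched residues 1 to 71 with a score of 110. Their coding lengths ran from 282 to 786.

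**Figure D3:**
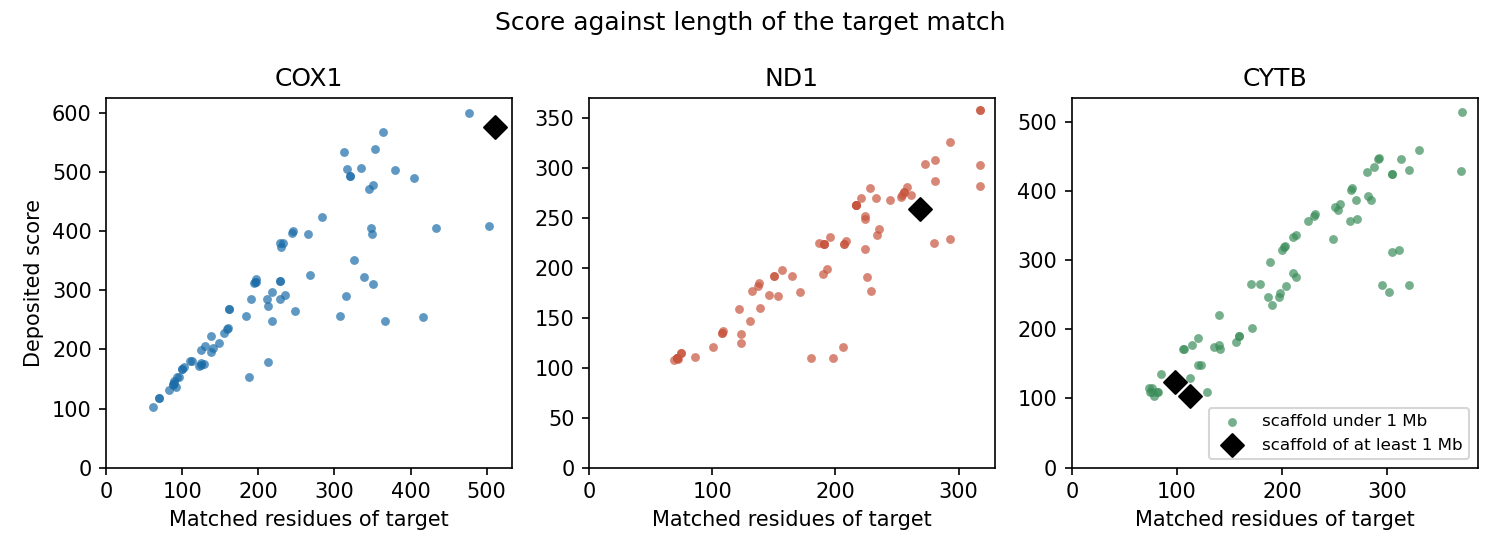
Deposited score against matched residues of the target for COX1, ND1 and CYTB, 1 point a model, with models on scaffolds of at least 1 Mb as black diamonds. Scores run from 103 to 601 for COX1, 108 to 358 for ND1 and 103 to 514 for CYTB, and the black diamonds lie at 576 for COX1, 259 for ND1, and 124 and 103 for CYTB.

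The aligned source proteins came from several mammals, by the Ensembl prefixes in the model names. Of the COX1 models, 46 came from a hedgehog protein, 20 from a human and 14 from an elephant protein. ND1 models came from elephant (23), hedgehog (15), human (11) and mouse (7) proteins and from a source marked HG (18). CYTB models came from the HG source (18), hedgehog (14) and elephant, human and mouse (13 each). The hedgehog is a member of the same order as the mole, the Eulipotyphla. Its COX1 models had a median score per matched residue of 1.53, against 1.40 for human and 1.49 for elephant. For CYTB the hedgehog median was also the highest, at 1.5, and for ND1 it was 1.08, below the 1.20 of the human protein. The score rates the match with the target and not with the source protein. The equal best ND1 models, both at 358, came from an elephant and a human protein. These medians therefore do not measure how close a source species is to the mole.

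Of the 4 models on long scaffolds, 2 had several coding exons and 2 had 1. ND1_copy23 and COX1_copy2 lay on scaffold 5, at 10799336 to 10800956 and at 10805110 to 10808406, both on the plus strand with ND1 upstream. Their edges were 4153 bases apart and their starts 5774. They were the only members with more than 1 coding exon. ND1_copy23 consisted of 597 and 325 coding bases parted by 699 bases. COX1_copy2 had 542, 760 and 236 coding bases, with 1022 and 737 bases between. This made it the longest COX1 model, with 1538 coding bases, residues 1 to 511 matched and a score of 576, 95.8% of the best. ND1_copy23 matched residues 26 to 294 and scored 259, 72.3% of the best. The nearest named models were KARS_copy2, a copy of a lysyl-tRNA synthetase gene, 3.92 kb before ND1_copy23, and PLA2G4A, a cytosolic phospholipase gene, 62.7 kb after COX1_copy2.

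The other 2 long-scaffold members were single-exon CYTB pieces of 569 and 473 coding bases. CYTB_copy71 lay on scaffold 24 at 620110 to 620678, with GSPT2 228.8 kb before and CXorf67 21.3 kb after it, and matched residues 145 to 256. CYTB_copy62 lay on scaffold 20 at 44945297 to 44945769, which was the last annotated base of that scaffold, 64.0 kb beyond C6orf10, and matched residues 61 to 158 with a score of 124. Scored per matched residue, all 4 ranked in the lower part of their symbol. These ranks take no account of which part or how much of the target was matched, and models of like extent were not compared. COX1_copy2 had 1.13 and ranked 68 of 80, ND1_copy23 had 0.963 and ranked 65 of 74, CYTB_copy62 had 1.27 and ranked 53 of 71, and CYTB_copy71 had 0.920 and ranked 67 of 71.

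All 225 members lay on the plus strand. Of all models 49.9% did, and of single-exon exonerate models also 49.9%. The minus-strand counterparts were in the annotation, but without a symbol. Model names record the source protein, and each source protein of a mitochondrial model was paired with 1 symbol. A further 244 models had such a source protein but neither symbol, score nor target: 90 paired with COX1, 82 with ND1 and 72 with CYTB. Of these, 240 lay on the minus strand and 4 on the plus strand. The 4 were 1 COX1, 2 ND1 and 1 CYTB model. The median coding length was 672 bases in models with a symbol and 705.5 in those without. Short scaffolds held 221 of the 225 and 236 of the 244. Counting by source protein therefore gave 170 COX1, 156 ND1 and 143 CYTB models, 469 in all, where counting by symbol gave 225. Why the minus-strand models carry no symbol was not tested.

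**Figure D4:**
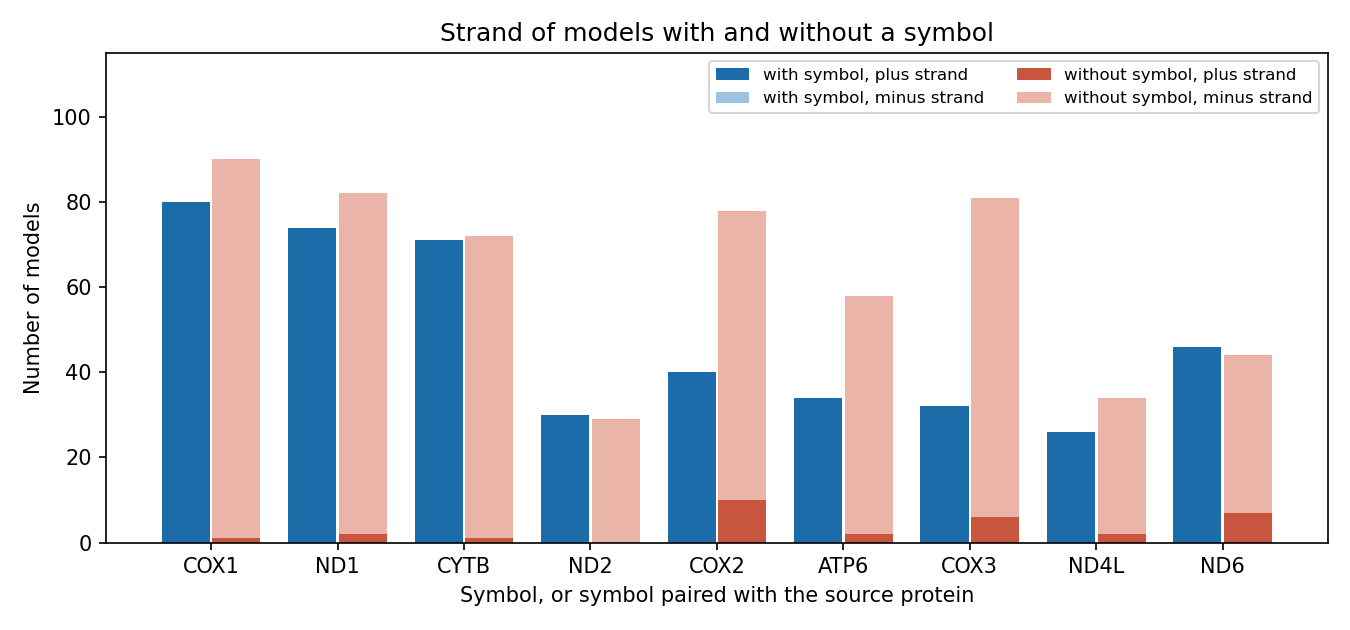
Number of models with a symbol (blue) and without one (red) for 9 mitochondrial names, assigned by symbol or by the symbol paired with the source protein, with plus-strand models in dark and minus-strand models in light colour. For COX1, ND1 and CYTB, models with a symbol number 80, 74 and 71, all on the plus strand, and models without one 90, 82 and 72, of which 89, 80 and 71 are on the minus strand.

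Neighbouring models kept the order of the mitochondrial circle. With symbols alone there were 18 neighbouring pairs of mitochondrial names that included a member, on 17 short scaffolds and scaffold 5. COX2, which follows COX1 on the circle, came next to COX1 in 9 pairs, and ND2 next to ND1 in 7. ND2 preceded COX1 in 1. ND1_copy23 and COX1_copy2 made up the last, with ND2 of the circle left out between them. With unnamed models placed by their source protein, there were 113 pairs. In all 113 the strands went together as on the circle, 108 followed each other with no listed name between and 112 with at most 2 names between. The exception was a pair of COX1 pieces 26 bases apart on scaffold 24.

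The spacing of these pairs was almost constant across scaffolds. In 43 COX1 and COX2 pairs, the edges were 139 to 162 bases apart with a median of 149. In 19 ND1 and ND2 pairs they were 214 to 216 apart, and in 43 pairs of ND6 and CYTB 73 to 87 apart with a median of 73. The 2 pairs of ND2 and COX1 had 389 and 394 bases between them. In the mitochondrial genomes of mammals, transfer RNA genes lie in these intervals. The 3 pairs of ND1 and COX1, all on long scaffolds, had 1691, 2041 and 4153 bases between their edges.

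Counted by source protein as well, 12 models of the 3 names lay on 6 long scaffolds, and all 3 names met on scaffold 13. There a CYTB piece at 61838 to 62361, an ND1 piece at 55981 to 56848 and a COX1 piece at 52743 to 54289 followed each other on the minus strand, and COX2 and COX3 pieces came next. The COX1 piece had 1547 coding bases in 1 exon, more than any model with the symbol. Read along the strand, the order CYTB, ND1, COX1, COX2, COX3 is that of the circle across its origin, with ND2, ATP8 and ATP6 left out. The nearest named models were SPTSSB, 153.9 kb from the CYTB piece, and OTOL1, 40.3 kb from the COX3 piece. On scaffold 29, ND1 at 23636505 to 23637452 was followed on the minus strand by COX1 at 23632745 to 23634463, ATP6 and COX3, between CCDC88C_copy3 and CINP. The other unnamed pieces were 2 of COX1 on scaffold 24, at 3168633 to 3171027, and 1 of COX1 on scaffold 3, at 16741426 to 16741869.

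**Figure D5:**
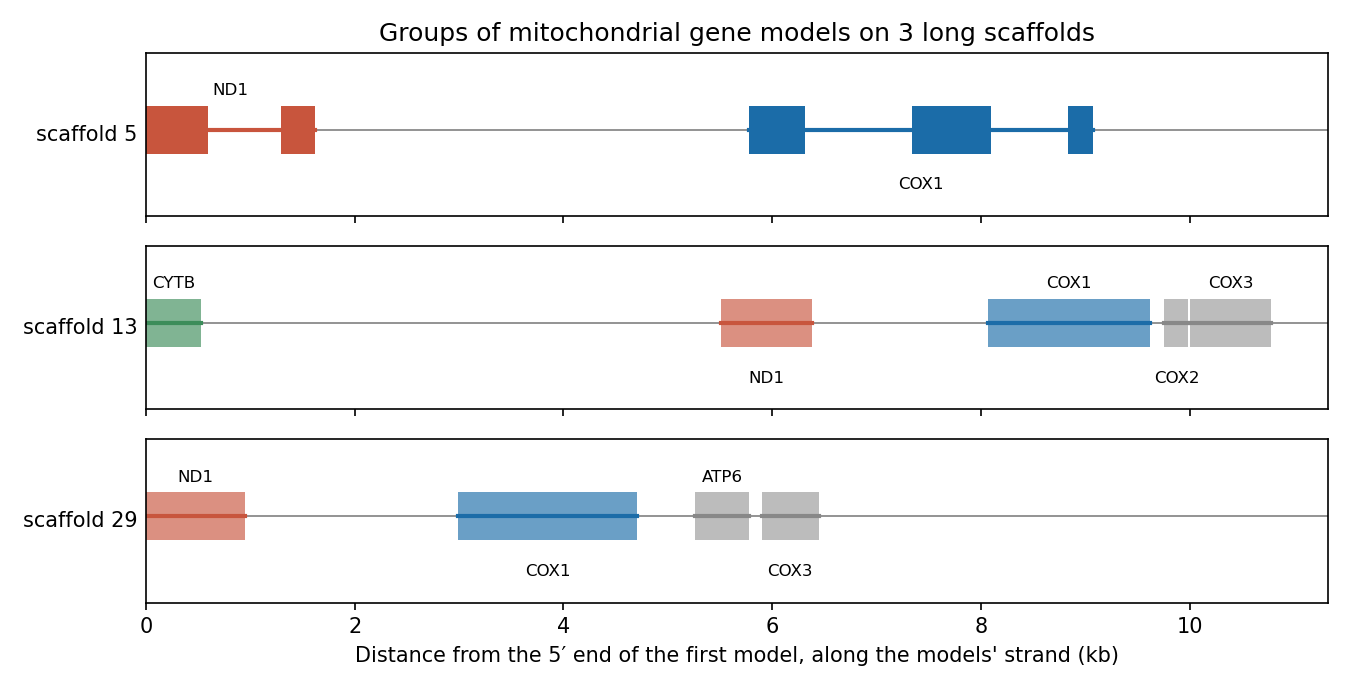
Groups of mitochondrial models on scaffolds 5, 13 and 29, drawn to scale in kb from the 5′ end of the first model along the strand of the models, with coding exons as boxes for models with a symbol (scaffold 5) and the whole span for models without one (pale). ND1 lies before COX1 in all 3 groups, with edges 4153, 1691 and 2041 bases apart.

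The other mitochondrial names showed the same placement. Of 10 such names, 6 had models: ND6 with 46, COX2 with 40, ATP6 with 34, COX3 with 32, ND2 with 30 and ND4L with 26. All 208 had a single coding exon, and 206 lay on scaffolds under 1 Mb. No model was found under the names ATP8, ND3, ND4 or ND5. The 2 on a long scaffold, ATP6_copy26 and COX3_copy29, were neighbours on scaffold 18, and COX3_copy29 ended 0.897 kb before the olfactory receptor model OR10A6.

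The nuclear genes that encode partners of these proteins gave the contrast. Of 59 listed nuclear subunits of complexes I, III and IV, 54 had a model and 16 had at least 2, with 83 models in all. Of these 83, 1 lay on a scaffold under 1 Mb, NDUFB4_copy2 (named after its position was seen), against 221 of the 225 members. A single coding exon was found in 27 of the 83. COX7B, a small subunit of cytochrome c oxidase, and NDUFB8, an accessory subunit of complex I, had most, with 5 models each. TRIM38 and BMS1P20, the symbols next in model number (LOC identifiers left aside), were also frequent on short scaffolds but differed in structure. TRIM38 had 63 models on 18 scaffolds, of which 29 had 1 coding exon, and BMS1P20 had 62 on 38, of which 10 had 1. Several models thus shared a scaffold in both, whereas COX1, ND1 and CYTB had 1 model of a name per scaffold. Scaffold size was not matched in this contrast. The last annotated base of the members' short scaffolds was at most 2291, which leaves little room for another model of the name. TRIM38 and BMS1P20 were counted over all scaffolds, with 6 and 13 models on those of at least 1 Mb.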

How the data were processed

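The deposited table was the authors' gene annotation of build talOcc3. Positions are first and last bases counted from 1. Per the file's own columns, models came from EVM, exonerate or ALN, and the deposited score belongs to the match of a transcript with a named target. Per the submitters' processing notes, BWA is named for the series, with no version given in the sources used here. Depth per library is unknown.

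Records were read with Python 3.11.15 and pandas 2.3.3. No test was run and no p-value given. The members and lists were chosen with earlier results of these data known. Named singly are the best, longest and lowest-scoring models, those on scaffolds of at least 1 Mb with their nearest named neighbours, and those of most exons. Other models named are said to be chosen after their values were seen. Models without a symbol were placed by the source protein in their name, a step chosen after seeing the data. Tested on simulated data, the routines recovered model number, coding lengths and highest target coverage for 200 of 200 symbols and 99 of 99 pairs in order. The RefSeq table of MPIMG_talOcc4v2.1 lists 37 mitochondrial genes, 13 of them protein-coding, without these symbols, so names were not matched to it.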

Additional observations from a re-analysis of the deposited data

How the results depend on the processing

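Of 75 alternative values for 18 results, 49 stayed within 1.5 times the count or within the 95% Wilson interval of the share, and 26 did not. The number of models per name moved only when models without a symbol were added by source protein, a setting chosen after seeing the data: to 170 for COX1, 156 for ND1 and 143 for CYTB. With these models, scaffolds with 2 names numbered 3 in place of 1, scaffolds with all 3 names 1 in place of 0, and neighbouring pairs in order 112 in place of 18. On scaffolds under 1 Mb only, 0 scaffolds held 2 names, and between members alone 1 pair in order was left. Both values restate that scaffold 5, a long one, was the only scaffold with 2 names. Shares on short scaffolds stayed within their interval in every setting tried. The other changes follow from the limits. At 90% of the longest coding length there were 3 COX1, 13 ND1 and 4 CYTB models, and at 95% there were 3, 12 and 3. At 90% of the target matched there were 3, 6 and 2. At 90% of the best score there were 3, 3 and 1, at 50% 34, 47 and 40, and with score per coding base 42 COX1, 14 ND1 and 40 CYTB models; for that measure the cause was not tested. The file gives no target length, so that alternative was not run. No model of the 3 names carried a low-confidence mark, overlapped another of its name or came from another source than exonerate, and none stood under another name of the gene, so these settings could change no count of theirs. No paired analysis was possible because there is 1 library per tissue and no column for either. How well the assembly resolves repeated DNA sets the precision of these counts, and no measure of it was analysed here.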

Other observations

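Mitochondrial models were frequent on the smallest scaffolds that carry any model. Scaffolds without an annotated model are not in the annotation and are not counted here. Of 1275 scaffolds whose last annotated base was under 2000, 800 (62.7%) carried a model with a mitochondrial symbol or with a source protein paired with one, and 456 carried COX1, ND1 or CYTB in this way. On these scaffolds, 982 of 1551 models were of this kind.

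A difference in naming between strands was also seen among models that were not paired with a mitochondrial symbol. Among such single-exon exonerate models on scaffolds under 1 Mb, 229 of 496 minus-strand models (46.2%) and 322 of 493 plus-strand models (65.3%) carried a name. Unnamed models of ATP8, ND3, ND4 or ND5 proteins cannot be told apart in this set, so a non-mitochondrial origin of its unnamed models was not established. On scaffolds of at least 1 Mb, 78.6% of 1339 minus-strand and 87.6% of 1401 plus-strand single-exon exonerate models carried a name, mitochondrial models included. These shares describe 1 annotation and were not tested.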
